A study of Mus musculus with 14 samples.

Results

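The Hox cluster genes of the mouse were followed in 14 RNA-seq libraries of embryonic stem cells (ESCs) and their Foxa2-positive derivatives. Members were all genes of the deposited tables named Hox followed by a cluster letter, a to d, and a paralogue number, with no suffix. This rule, which used no measured value, found 39 of 24054 genes, of which 38 are described. Of the 38, 10 lie in cluster a on chromosome 6, 10 in cluster b on chromosome 11, 9 in cluster c on chromosome 15 and 9 in cluster d on chromosome 2.

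Hox genes encode homeodomain transcription factors that give cells of the trunk their position along the head-to-tail axis. Within each cluster the genes at the 3′ end, with the low paralogue numbers, are switched on earliest and reach farthest toward the head, and those at the 5′ end, with the high numbers, come on last and mark the tail. In ESCs the clusters are known as classic Polycomb targets that carry activating and repressive histone marks together, while retinoic acid, Wnt and Fgf signals and the Cdx factors open them from the 3′ end.

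The study asked how the pioneer factor Foxa2 acts in chromatin during endoderm formation. The control cells were Foxa2-Venus-KO/+ and the knock-out cells Foxa2-Venus-KO/Foxa2-Venus-KO. In both, a nuclear Venus reporter replaced the Foxa2 coding sequence, so the controls had also lost 1 of their 2 Foxa2 alleles. The groups d0con and d0ko (n = 2 each) were ESCs plated on red-fluorescent mouse embryonic fibroblasts without LIF and sorted as Cherry-negative. The groups d3con and d3ko (n = 3 each) had spent 3 days on Wnt3a-secreting feeder cells with 12 ng/ml Activin A and were sorted as Venus-positive. Each genotype was represented by 2 clones, with replicates 1 and 3 from the same clone and replicate 2 from the other, as the clone names in the deposited data give them. The groups d2-FVFn and d2-FVFp (n = 2 each) were Venus-negative and Venus-positive cells of the TetON-Foxa2-Venus line T119 after 48 h of 40 ng/ml doxycycline. That line carries lentiviral Foxa2-Venus, was grown without feeders and is 1 line, so its replicates do not sample clones. Both of its groups had received doxycycline, so neither is an untreated control.

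Library totals ranged from 14142788 to 27278237 expected counts. A count of 0 in a library allowed a level of up to 0.110 to 0.212 CPM (counts scaled to a common library total; 3 counts, counting error only). Foxa2 itself was at 58.6, 34.8 and 54.5 TPM (transcript level scaled for gene length and library total) in d3con, at 0.11 to 0.19 TPM in d3ko, at 2.01 and 2.99 TPM in d2-FVFn and at 160 and 169 TPM in d2-FVFp, as the labels have it. By the lengths RSEM used, replicate 1 of d3con and d3ko appeared to have been quantified with reads of 75 bases and the other 12 libraries with 50. No label gives a read length, and the study states 50 bases for this RNA-seq. The 10 fibroblast markers (Col1a1, Col1a2, Col3a1, Dcn, Lum, Postn, Thy1, Prrx1, Twist2 and Pdgfrb) summed to 12.9 to 15 TPM in d0con, 39.2 to 139 TPM in d0ko, 61.0 to 310.0 TPM in d3con, 137 to 373 TPM in d3ko and 3.03 to 4.37 TPM in the 4 doxycycline libraries. At day 3 none of the 10 was at 0 in any library. The 6 pluripotency markers (Pou5f1, Nanog, Sox2, Zfp42, Klf4 and Dppa5a) summed to 13787 to 15663 TPM at day 0. At day 3 they summed to 562 to 985 TPM in d3con and to 15431, 2668 and 17364 TPM in d3ko. Replicates 1 and 3 of d3ko, from 1 clone, were thus near day 0 by this sum, which was mostly Dppa5a there. Pou5f1 did not split in this way, at 523, 501 and 944 TPM in d3ko. In sorted bulk samples fewer cells of a type and less RNA per cell cannot be told apart. The labels do not say that replicates were separate cultures, so p-values measure the spread between these libraries.

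The Hox clusters were close to silent in all groups. The highest level of any Hox gene in any library was 6.24 TPM, and 5 of the 38 (13.2%) exceeded 1 TPM in at least 1 library, against 62.3% of all genes. The 5 were Hoxa10, Hoxb1, Hoxb2, Hoxb13 and Hoxc13. Averaged over the 14 libraries the median Hox gene stood at 0.104 TPM, below the 1.62 TPM of the median gene and above 31.4% of all genes. The 38 genes together drew 2158 of 279945587 counts. Hoxb8 and Hoxc11 had no count in any of the 14 libraries, which allows up to 0.0107 CPM over all of them together, and 31 of the 38 passed the filter on low counts in neither fit, with at most 0.96 TPM (Hoxa7 in d2-FVFn). The filter, at least 1 CPM in at least 2 libraries, left 5 Hox genes to be tested over day 0 and day 3 (Hoxa9, Hoxa10, Hoxb1, Hoxb2, Hoxd11) and 2 under doxycycline (Hoxb13, Hoxc13). The other genes were too low to test and are described by their values.

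**Figure D1:**
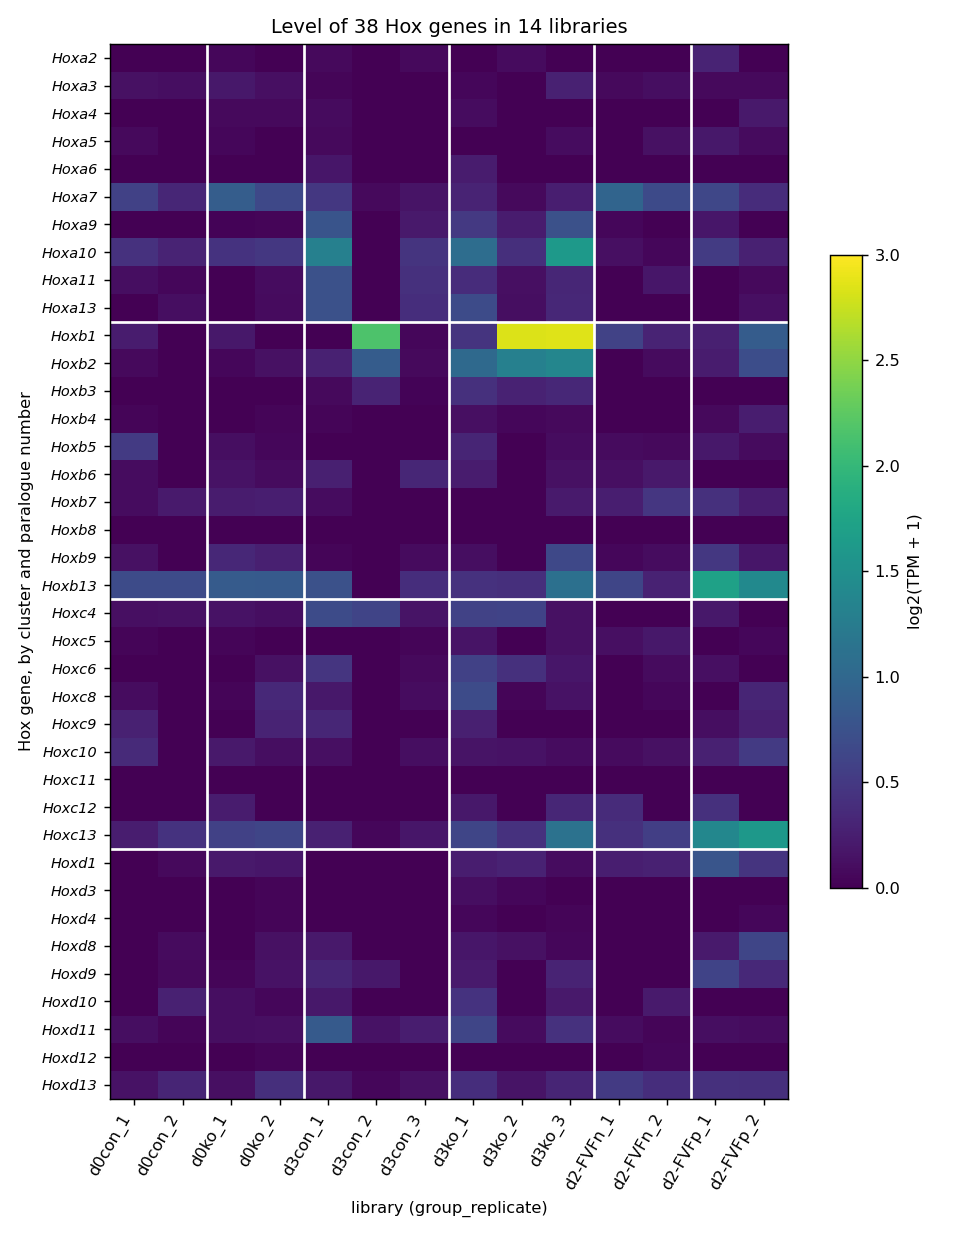
Level of each of the 38 Hox genes (rows, by cluster and paralogue number) in each of the 14 libraries (columns), as log2(TPM + 1) on a colour scale from 0 to 3. Most cells are at or near 0, and the brightest are Hoxb1 in replicates 2 and 3 of d3ko at 6.18 and 6.24 TPM.

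Promoter sequence was at hand for 22 of the 38 genes (RefSeq, GRCm38.p6, 24 windows from 250 bases before to 50 after a start site). These windows held a median of 14.5 CpG dinucleotides, against 7.0 in all 32851 windows of that length, with a median GC content of 57.7% against 52.7%. The windows of the gene that reached the highest level, Hoxb1 (chr11:96365508-96365807, plus strand), of a gene with no count in any library, Hoxb8 (chr11:96281655-96281954, plus strand), and of the highest of the 5′ genes at day 3, Hoxa10 (chr6:52234890-52235189, minus strand), are shown 5′ to 3′. Capitals mark matches on either strand to 6 short motifs. TGATNNAT is bound by Hox proteins together with Pbx. TTTAT is the core of sites for Cdx and the posterior Hox factors. TATAAA is the TATA box, and every match to it also holds a match to the previous motif. AGGTCA is the element that retinoic acid receptors recognise in pairs. TGTTTAC is read by forkhead factors such as Foxa2. GATAAG is read by Gata factors.
Hoxb1: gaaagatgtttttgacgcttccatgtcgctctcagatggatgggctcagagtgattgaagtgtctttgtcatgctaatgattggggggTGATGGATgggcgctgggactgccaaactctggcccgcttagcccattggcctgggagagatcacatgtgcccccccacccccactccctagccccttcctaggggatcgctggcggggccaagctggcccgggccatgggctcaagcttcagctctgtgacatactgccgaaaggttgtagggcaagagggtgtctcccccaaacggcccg
Hoxb8: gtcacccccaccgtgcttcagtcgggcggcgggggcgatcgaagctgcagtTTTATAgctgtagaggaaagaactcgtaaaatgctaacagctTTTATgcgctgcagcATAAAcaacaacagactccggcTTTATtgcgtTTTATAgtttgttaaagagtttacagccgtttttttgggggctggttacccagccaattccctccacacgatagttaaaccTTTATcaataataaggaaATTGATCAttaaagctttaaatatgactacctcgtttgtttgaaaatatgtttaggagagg
Hoxa10: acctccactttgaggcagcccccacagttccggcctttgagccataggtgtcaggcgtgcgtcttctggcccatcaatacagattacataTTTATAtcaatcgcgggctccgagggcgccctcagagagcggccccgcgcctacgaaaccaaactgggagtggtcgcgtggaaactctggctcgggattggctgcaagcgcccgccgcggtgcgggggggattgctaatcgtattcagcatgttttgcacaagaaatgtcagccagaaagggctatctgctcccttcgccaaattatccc
The Hoxb1 window held 10 CpG dinucleotides and 1 match, to TGATNNAT, which begins at position -162 relative to the start site. The Hoxb8 window, from the silent gene, held 13 CpG dinucleotides and 9 matches, of which 6 were to TTTAT, 2 to TATAAA and 1 to TGATNNAT. The Hoxa10 window shown, 1 of 2 for that gene, held 21 CpG dinucleotides, with a TATAAA match at position -160. The other held 12 CpG dinucleotides, with a TTTAT match and none to TATAAA. Over the 24 Hox windows AGGTCA was present in 7 (29.2%, against 16.3% of all windows), TGATNNAT in 4 (16.7% against 8.85%), TTTAT in 9 (37.5% against 40.0%), TATAAA in 4 (16.7% against 13.6%), GATAAG in 2 (8.33% against 7.44%) and TGTTTAC in 0 (against 3.65%). These are letter matches in short windows and were not tested.

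The 3′ genes of cluster b reached their highest levels at day 3. Hoxb1 marks rhombomere 4 of the hindbrain and early posterior mesoderm, and Hoxb2 and Hoxb3 are its neighbours toward the 5′ end. Hoxb1 was at 0.17 and 0 TPM in d0con, at 0.14 and 0 TPM in d0ko, at 0, 3.49 and 0.04 TPM in d3con and at 0.37, 6.18 and 6.24 TPM in d3ko. Within d3con, replicate 2 held nearly all of the signal, 76 of 77 counts, and the 3 d3ko libraries held 7, 124 and 192. The edgeR log2 fold change was 5.64 (SE 2.40, adjusted p = 0.104) for d3ko against d0ko and 1.88 (SE 1.57, adjusted p = 0.475) for d3ko against d3con, neither past the threshold. Without d3con replicate 2 the latter became 7.39 (SE 1.87, edgeR adjusted p = 0.04), and for d3con against d0con leaving out that library turned the sign, from 3.44 to -2.07. With d3con replicate 2 left out, Hoxb1 passed the count filter only through d3ko, so that adjusted p carries no weight.

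Hoxb2 was higher at day 3 than at day 0 in the knock-out cells. It was at 0.04 and 0.10 TPM in d0ko and at 1.03, 1.47 and 1.59 TPM in d3ko, with no overlap. The log2 fold change was 4.0 (SE 1.15, edgeR adjusted p = 0.0285), the only 1 of the 5 Hox genes tested that was called, where 11.6% of all genes were called higher and 5.72% lower. At an unadjusted p under 0.05 it was 2 of the 5 and 43.3% of all genes. Hoxb2 passed the count filter only through replicates 2 and 3 of d3ko, the group in which it was high, so the count of 1 carries no weight. With no filter its adjusted p was 0.0325 (edgeR). In the controls Hoxb2 went from 0.05 and 0 TPM to 0.21, 0.83 and 0.05 TPM (log2 fold change 3.18, SE 1.41, edgeR adjusted p = 0.0844), and without d3con replicate 3 the change was called (3.72, adjusted p = 0.0324). All 3 d3ko libraries lay above all 3 d3con libraries, yet the log2 fold change of 1.92 (SE 0.82) missed the threshold (adjusted p = 0.166 by edgeR). Without d3con replicate 2 it passed (3.30, edgeR adjusted p = 0.0383). Hoxb2 had passed the count filter only through d3ko here too, so that pass carries no weight. The call in the knock-out cells held without d3ko replicate 1 (4.16, adjusted p = 0.0428) and was lost without d0ko replicate 1 (3.56, adjusted p = 0.189) or d0ko replicate 2 (4.59, adjusted p = 0.123, all edgeR). It was also lost without the 2 libraries of longer reads (4.18, edgeR adjusted p = 0.0564), and without d3ko replicate 2 or 3 Hoxb2 no longer passed the count filter.

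Beyond Hoxb2 in the knock-out cells, edgeR called none of the 5 Hox genes tested in the day 0 and day 3 libraries. In d3con against d0con it called 0 of 5, where 20.6% of all tested genes were called higher and 14.6% lower, and 2 of the 5 had an unadjusted p under 0.05, as had 58.6% of all genes. DESeq2, which gave no p for Hoxb1 in any of these comparisons, called 1 of the other 4, Hoxa9 (adjusted p = 0.0235, against 0.0635 by edgeR), which is listed at 0 in both d0con libraries and gets no fold. All 5 genes passed the count filter only through day 3 libraries, so the numbers called between the days carry no weight. In d3ko against d3con edgeR called 0 of 5 and DESeq2 0 of the 4 it tested, where edgeR called 4.75% of all genes higher and 3.51% lower, and 1 of the 5, Hoxb2, had an unadjusted p under 0.05, as had 27.9% of all genes. The difference between the genotypes in the day 3 change was tested as an interaction and was called by edgeR for none of the 5 and for 0.0% of the 13899 genes. At an unadjusted p under 0.05 the interaction picked 0 of the 5 and 13.2% of all genes, and limma called 0 of the 5. DESeq2 gave an adjusted p for only 1 of the 5 there, Hoxa10 (adjusted p = 0.957).

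Hoxb3 had no count in the 4 day 0 libraries. At day 3 it had 2, 8 and 1 counts in d3con and 10, 7 and 13 counts in d3ko, that is 0.05, 0.23 and 0.02 TPM and 0.33, 0.22 and 0.26 TPM. Over d3ko it was at least 3.99-fold higher than the mean limit that 3 counts per library set in d0ko. It did not pass the count filter, and with no filter it was called together with Hoxb2 (edgeR adjusted p = 0.0312). That fit called 2 of 36 Hox genes, beside 12.5% of all genes. Hoxb4, the next gene of the cluster, had at most 2 counts in any day 3 library, and Hoxb8 had none.

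Hoxa2 and Hoxa3 gave no such rise, with at most 0.06 TPM for Hoxa2 in the day 3 libraries and at most 0.21 TPM for Hoxa3. Hoxd1 had no count in d3con and 0.18, 0.22 and 0.07 TPM in d3ko, from at most 4 counts a library. Hoxd3 and Hoxd4 did not exceed 0.08 TPM anywhere.

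**Figure D2:**
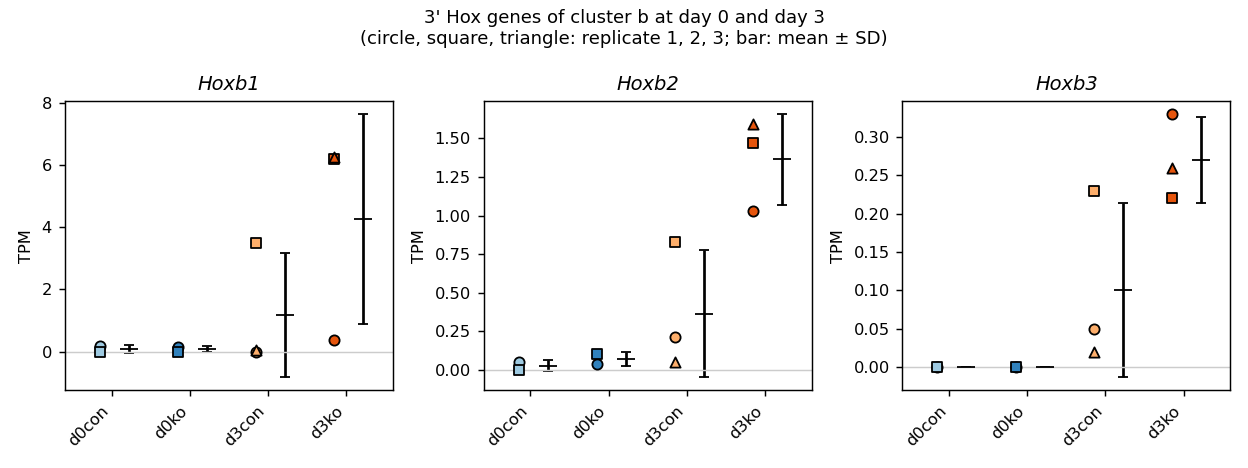
TPM of Hoxb1, Hoxb2 and Hoxb3 in each day 0 and day 3 library, with the mean ± SD of each group beside the points. Hoxb1 is high in replicate 2 of d3con (3.49 TPM) and in replicates 2 and 3 of d3ko (6.18 and 6.24 TPM), and Hoxb2 is at 1.03 TPM or more in all 3 d3ko libraries.

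The libraries with Hoxb1 were also those richest in the primitive streak gene T (Brachyury). T was at 11.4, 131 and 15.5 TPM in d3con and at 13.7, 212 and 55.7 TPM in d3ko, against at most 0.55 TPM at day 0. The 3 libraries above 50 TPM of T were the 3 above 3 TPM of Hoxb1. The 8 mesoderm markers together (T, Tbx6, Mesp1, Msgn1, Hand1, Kdr, Bmp4 and Cdx2) summed to 31.6, 183 and 42.2 TPM in d3con and to 105, 370.0 and 125 TPM in d3ko. At day 0, where Hoxb1 was at most at 0.17 TPM, they summed to at least 116 TPM in each of the 4 libraries, nearly all of it Bmp4 (111 to 198 TPM), so the sum did not follow Hoxb1 there. Bmp4 was lower at day 3, at 4.16 to 9.34 TPM in d3con and 18.5 to 55.1 TPM in d3ko. Single markers did not all follow Hoxb1 at day 3. Mesp1, Tbx6 and Kdr were highest in replicate 2 of both groups. In d3ko replicate 3, the library highest in Hoxb1, Kdr had its lowest day 3 value (4.82 TPM). Mesp1 (6.48 TPM) and Tbx6 (2.02 TPM) were lower there than in d3con replicate 3 (10.4 and 2.22 TPM). Msgn1 was at 0 in d3con replicate 2. The part of the mesoderm markers in the Hoxb1 result was not tested. Within d3con the T-rich library was also the only one from its clone, so clone and T cannot be told apart there.

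The central genes, paralogues 4 to 8, summed to 0.57 to 2.87 TPM over the 14 libraries. Hoxa7 was the highest of them, at 0.50 and 0.25 TPM in d0con and 0.84 and 0.57 TPM in d0ko. At day 3 it was at 0.40, 0.05 and 0.12 TPM in d3con and at 0.23, 0.05 and 0.19 TPM in d3ko, so that d3ko lay below d0ko while the control groups overlapped. Hoxc4 had 2 counts in each d0con library and 14, 11 and 3 counts in d3con, and in d3ko it had 9, 10 and 3. None of the central genes passed the count filter.

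The 5′ genes, paralogues 9 to 13, differed widely between replicates at day 3, and the groups overlapped. They summed to 2.0 and 1.85 TPM in d0con, to 2.55 and 3.01 TPM in d0ko, to 6.10, 0.33 and 2.02 TPM in d3con and to 5.23, 1.61 and 7.45 TPM in d3ko. Hoxa10, which acts in the limb and the reproductive tract, was at 0.35 and 0.23 TPM in d0con and 0.36 and 0.40 TPM in d0ko. At day 3 it was at 1.48, 0 and 0.37 TPM in d3con and at 1.11, 0.32 and 2.07 TPM in d3ko. Replicate 2 was the lowest of its group at day 3 in both genotypes, and day 0 lay inside the day 3 range.

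Hoxa9 followed the same order, at 0.71, 0 and 0.15 TPM in d3con and at 0.41, 0.17 and 0.68 TPM in d3ko, and at no more than 0.03 TPM at day 0. Hoxd11 was at 0.80, 0.11 and 0.18 TPM in d3con and 0.54, 0.06 and 0.34 TPM in d3ko. Both again had their lowest value in replicate 2. Between the genotypes at day 3 the edgeR log2 fold changes were 0.90 (SE 1.08) for Hoxa10, 0.50 (SE 1.11) for Hoxa9 and -0.39 (SE 0.93) for Hoxd11, with adjusted p of 0.631, 0.809 and 0.827. Hoxa11 and Hoxa13 had 0 counts in d3con replicate 2 and 0.67 TPM each in d3con replicate 1. Hoxa11 shares some exon sequence with Hoxa11os on the opposite strand. Reads within that stretch cannot be told apart, because the library kit does not mark strand. The same holds for the stretch shared by Hoxd3 and Hoxd3os1.

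The summed fibroblast markers ranked the 6 day 3 libraries as the summed 5′ Hox genes did. In ascending order the 10 markers summed to 61.0 TPM in d3con replicate 2, 137 in d3ko replicate 2, 221 in d3con replicate 3, 301 in d3ko replicate 1, 310.0 in d3con replicate 1 and 373 in d3ko replicate 3. The 5′ Hox sums of those 6 libraries, in the same order, were 0.33, 1.61, 2.02, 5.23, 6.10 and 7.45 TPM. Single genes did not all keep this order, since Hoxa9 and Hoxd11 were higher in d3con replicate 1 than in d3ko replicate 3. Nor did all single markers, and the collagens made up most of the sum. Col1a1, at 30.3 to 260 TPM, Thy1, at 2.51 to 13.3 TPM, and Prrx1, at 0.41 to 1.87 TPM, kept the order. The other markers did not. At day 3 Pdgfrb was highest in d3ko replicate 2 (18.7 TPM) and Dcn lowest in d3ko replicate 3 (0.57 TPM), where Lum was at 0.39 TPM. At day 0 the markers reached 139 TPM in d0ko replicate 2, where Hoxa9 was at 0.03 TPM and the 5′ genes summed to 3.01 TPM. Of the 9 fibroblast markers tested 6 were called higher in d3con against d0con, 2 of 9 in d3ko against d0ko and 0 of 9 in d3ko against d3con (edgeR). The shares of all genes called higher were 20.6%, 11.6% and 4.75%, in that order. The part of the feeder cells in the 5′ Hox values was not tested.

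**Figure D3:**
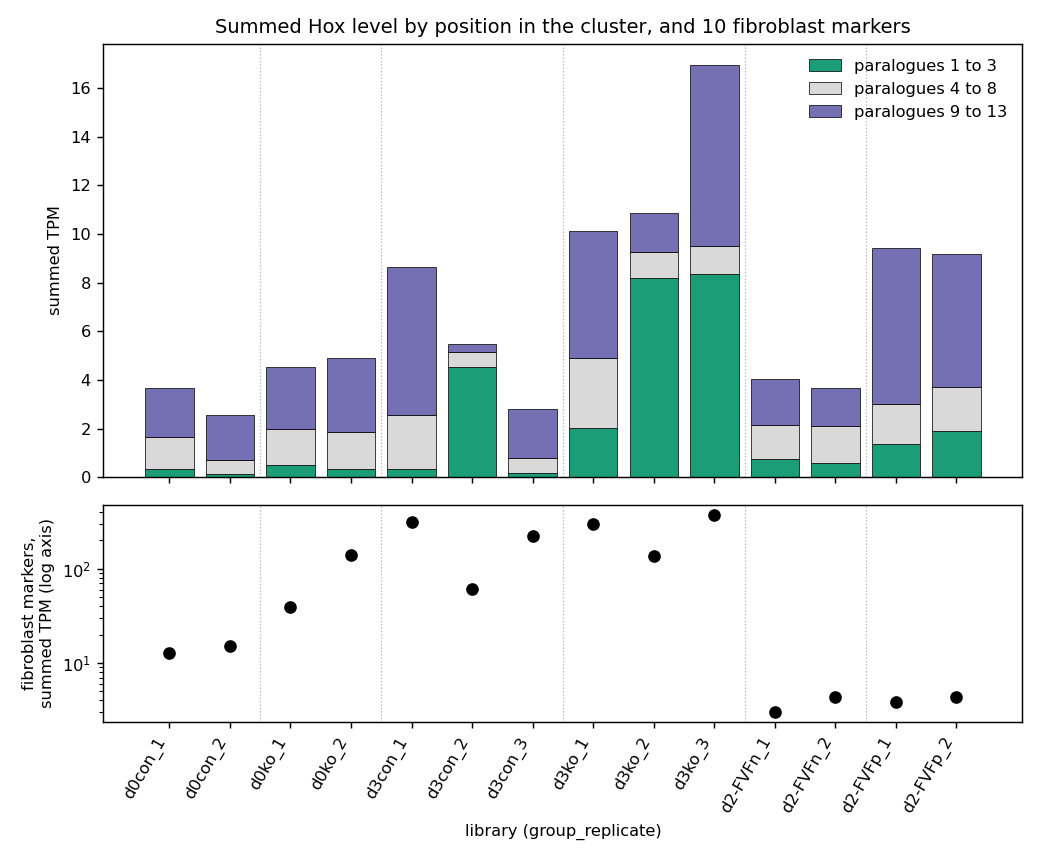
Top, summed TPM of the Hox genes in each library, stacked by position in the cluster (paralogues 1 to 3, 4 to 8 and 9 to 13). Bottom, summed TPM of 10 fibroblast markers on a log axis. At day 3 the purple 5′ part runs from 0.33 to 7.45 TPM in the same order as the marker sum, while in d2-FVFp it is at 5.48 and 6.43 TPM with the markers at 3.83 and 4.31 TPM.

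Summed over the 38 genes, the level was 3.65 and 2.55 TPM in d0con, 4.52 and 4.88 TPM in d0ko, 8.66, 5.46 and 2.82 TPM in d3con and 10.1, 10.9 and 17.0 TPM in d3ko. All d3ko libraries lay above all d3con and all d0ko libraries, and both d0ko libraries lay above both d0con libraries. The d3con libraries overlapped d0con. On average cluster b gave the largest part of the d3ko sum, 7.03 ± 3.91 TPM (SD, n = 3), beside 2.18 ± 2.07 TPM in d3con, and cluster d the smallest, 1.15 ± 0.631 TPM beside 0.68 ± 0.684 TPM. In d3ko replicate 1, though, cluster b (2.66 TPM) lay below clusters a (2.94 TPM) and c (2.73 TPM). Gene by gene, 4 of the 38 (10.5%) were higher in every d3ko library than in every d3con library and 0 lower, where 7.82% and 8.01% of all genes were. The 4 were Hoxb2, Hoxb4, Hoxc13 and Hoxd1, of which Hoxb4 and Hoxd1 had at most 4 counts a library. Against day 0, 3 Hox genes (7.89%) were higher and 1 (2.63%) lower without overlap in the controls, beside 29.3% and 19.8% of all genes. In the knock-out cells 8 (21.1%) were higher and 2 (5.26%) lower, beside 23.1% and 15.6% of all genes.

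**Figure D4:**
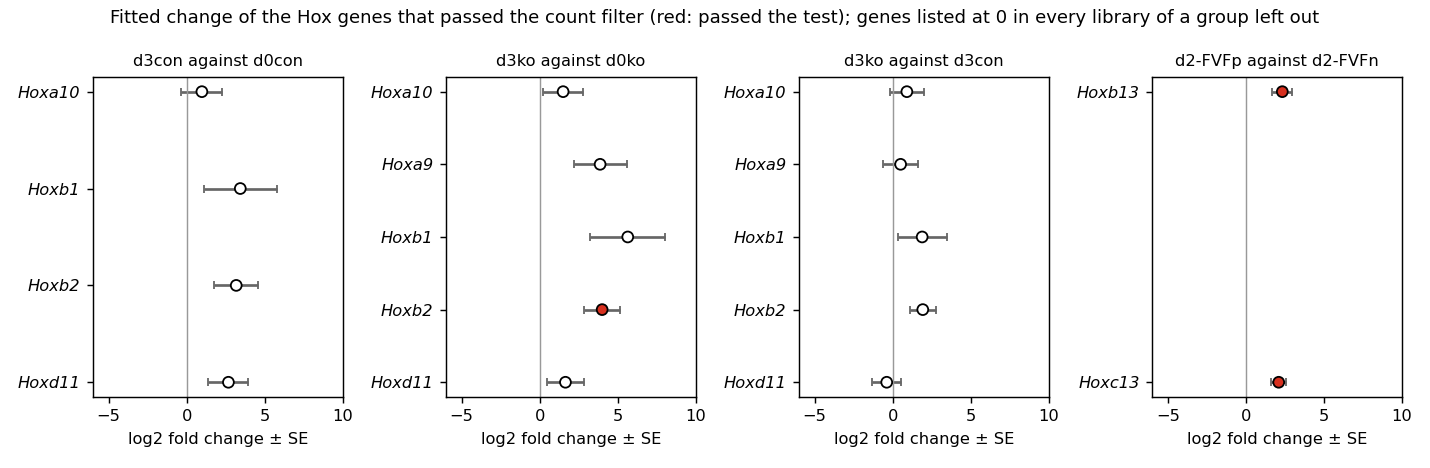
edgeR log2 fold changes ± SE of the Hox genes that passed the count filter, in 4 comparisons. Filled red points passed the test, which are Hoxb2 in d3ko against d0ko, and Hoxb13 and Hoxc13 in d2-FVFp against d2-FVFn. Hoxa9 is left out of the first panel because it is listed at 0 in both d0con libraries.

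At day 0 none of the Hox genes tested differed detectably between the genotypes. The 5 had at most 12 counts in any day 0 library and had passed the filter only through day 3. The summed Hox level was higher without overlap in d0ko (4.52 and 4.88 TPM) than in d0con (3.65 and 2.55 TPM). By edgeR none of the 5 tested genes was called between d0ko and d0con, none had an unadjusted p under 0.05, limma called none, and DESeq2 called none of the 4 it tested, Hoxb1 being without a p. In the whole table edgeR called 0.0% of genes, with 1.4% at an unadjusted p under 0.05. Hoxa10, the highest of them at that stage, was at 0.35 and 0.23 TPM in d0con and at 0.36 and 0.40 TPM in d0ko. Without overlap of the TPM values, 9 of the 38 (23.7%) were higher in d0ko and 0 lower, beside 20.7% and 9.82% of all genes. Among these 9 were Hoxb13, at 0.61 and 0.61 against 0.82 and 0.80 TPM, and Hoxc13, at 0.18 and 0.36 against 0.49 and 0.55 TPM.

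Doxycycline-treated cells sorted as Venus-positive had more Hox RNA than the Venus-negative cells of the same line, and 2 Hox genes passed the count filter. Hoxb13, the most 5′ gene of cluster b and a gene of the tail bud, hindgut and prostate, was at 0.54 and 0.22 TPM in d2-FVFn and at 2.30 and 1.69 TPM in d2-FVFp. Hoxc13, the most 5′ gene of cluster c and a regulator of hair keratins, was at 0.33 and 0.47 TPM in d2-FVFn and at 1.61 and 2.03 TPM in d2-FVFp. The groups did not overlap for either gene, whose d2-FVFp values rested on 19 to 43 counts a library.

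The log2 fold changes were 2.33 (SE 0.63, adjusted p = 0.0459) for Hoxb13 and 2.10 (SE 0.48, adjusted p = 0.0271) for Hoxc13 by edgeR. Both of the 2 genes tested were called higher, where 6.96% of all tested genes were called higher and 1.47% lower (33.4% at an unadjusted p under 0.05, as were both), but they passed the count filter through the group in which they were high, so this count carries no weight. DESeq2 called neither (adjusted p of 0.125 and 0.0515). Leaving out d2-FVFn replicate 1 gave adjusted p of 0.0732 and 0.117, and leaving out d2-FVFn replicate 2 gave 0.168 and 0.074 (edgeR), and without either d2-FVFp library neither gene passed the filter.

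Hoxd8, a central gene, and Hoxd9, a 5′ gene, had no count in d2-FVFn. Hoxd9 had 8 and 5 counts in d2-FVFp (0.52 and 0.27 TPM), at least 2.67-fold above the mean limit of 3 counts in d2-FVFn, and was called with no filter (edgeR adjusted p = 0.0392). That fit called 3 of 33 Hox genes, beside 8.37% of all genes. Hoxd8 was at 0.16 and 0.55 TPM. In contrast Hoxa7 was lower in d2-FVFp, at 0.56 and 0.30 TPM against 0.96 and 0.60 TPM, and Hoxd13 was at 0.33 and 0.32 TPM against 0.42 and 0.31 TPM. Over the cluster ends, paralogues 1 to 3 summed to 0.75 and 0.58 TPM in d2-FVFn and 1.38 and 1.89 TPM in d2-FVFp, paralogues 4 to 8 to 1.39 and 1.53 against 1.61 and 1.80 TPM, and paralogues 9 to 13 to 1.88 and 1.57 against 6.43 and 5.48 TPM. The ends were thus higher without overlap, and so was the centre by a smaller margin. Of the 38 genes 11 (28.9%) were higher and 3 (7.89%) lower without overlap, beside 23.0% and 17.6% of all genes.

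In these libraries the fibroblast markers were near their floor. Of the 10, between 1 and 2 exceeded 1 TPM in a library, and Postn was at 0 in both d2-FVFn libraries. Cdx2, the caudal factor that activates posterior Hox genes, was at 0 and 0.18 TPM in d2-FVFn and at 7.44 and 7.29 TPM in d2-FVFp (log2 fold change 6.10, SE 0.66, edgeR adjusted p = 0.00262). Its part in the Hox values was not tested. In the day 3 libraries Cdx2 did not exceed 0.44 TPM.

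**Figure D5:**
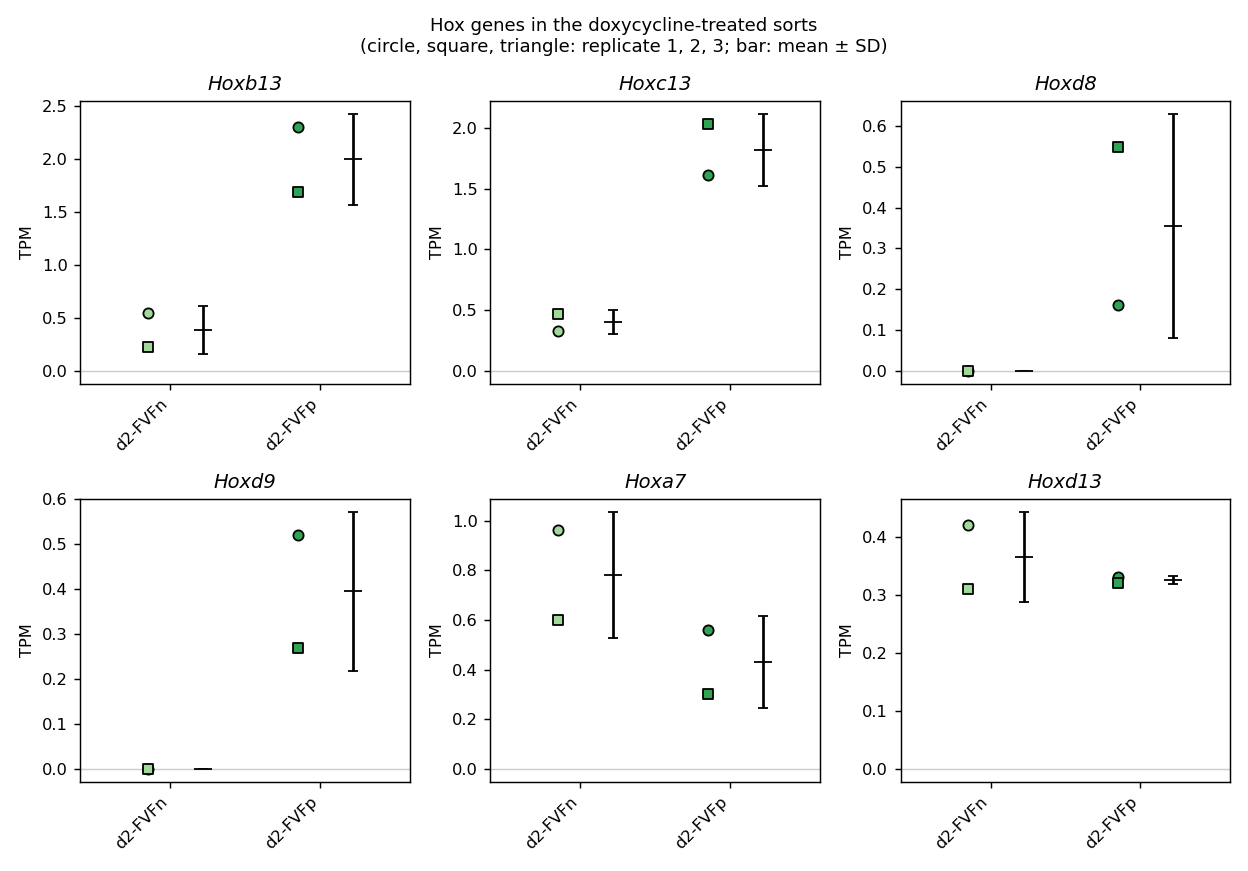
TPM of 6 Hox genes in the 2 Venus-negative and 2 Venus-positive doxycycline libraries, with the mean ± SD of each group beside the points. Hoxb13 and Hoxc13 stand between 1.61 and 2.30 TPM in d2-FVFp and at most at 0.54 TPM in d2-FVFn, Hoxd8 and Hoxd9 have no count in d2-FVFn, and Hoxa7 is lower in d2-FVFp.

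Genes that act on the clusters were tested as well. Of 16 upstream regulators 13 were tested. In d3con against d0con 6 were called higher and 4 lower (median log2 fold change 1.72, beside 0.07 over all genes tested), in d3ko against d0ko 5 and 1 (2.43 beside 0.07), in d3ko against d3con 3 and 1 (0.84 beside 0.02). In d2-FVFp against d2-FVFn 2 of 10 were called higher and 0 lower (0.54 beside 0.01), all by edgeR. The shares of all genes called higher and lower, in that order of comparisons, were 20.6% and 14.6%, then 11.6% and 5.72%. The later comparisons had 4.75% and 3.51%, then 6.96% and 1.47%. Cdx1, a caudal factor that responds to Wnt and retinoic acid, was at 8.52 and 6.58 TPM in d0con, 0.20, 1.15 and 0.18 TPM in d3con, 7.0 and 3.32 TPM in d0ko and 15.4, 3.68 and 48.6 TPM in d3ko. It was lower in d3con than in d0con (log2 fold change -4.12, SE 1.06, adjusted p = 0.0105) and higher in d3ko than in d3con (5.49, SE 1.06, adjusted p = 0.0168, both edgeR). Aldh1a2, which makes retinoic acid, changed in the same directions (-2.47, SE 0.83, adjusted p = 0.0329, and 3.52, SE 0.79, adjusted p = 0.0257), and so did Gbx2, a target of Wnt and Fgf signals (-6.56 and 4.35). Rarb, a retinoic acid receptor and itself a retinoic acid target, changed in the opposite directions (6.40, SE 1.22, adjusted p = 0.00262, and -3.06, SE 0.81, adjusted p = 0.0437), and Rarg, another such receptor, was lower at day 3 in both genotypes (-3.61 and -2.18, adjusted p = 0.000901 and 0.0141, all edgeR).

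Cyp26a1, which degrades retinoic acid, rose from 0.94 to 1.24 TPM at day 0 to 514, 264 and 440.0 TPM in d3con and 225, 339 and 66.7 TPM in d3ko. The log2 fold changes were 8.40 (SE 0.84, adjusted p = 0.00023) and 7.27 (SE 0.79, adjusted p = 0.000839) by edgeR. The lowest Cyp26a1 value at day 3 was in d3ko replicate 3, the library with the highest Hox sum. The d3con libraries went the other way, as replicate 1 had both the highest Cyp26a1 value and the highest Hox sum of that group (8.66 TPM). A link between the 2 levels was not tested. In d2-FVFp Cyp26a1 was at 9.46 and 8.43 TPM against 0.59 and 0.82 TPM (3.59, SE 0.36, edgeR adjusted p = 0.00211). The other regulators called included Fgf8, Wnt3 and T, higher at day 3 in both genotypes.

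Of 8 Hox cofactors of the Pbx, Meis and Pknox families, which bind DNA together with Hox proteins, 3 were called higher in d3con against d0con and 2 in d3ko against d0ko, with none lower (median log2 fold change 0.49 and 0.93). Of all genes 20.6% and 11.6% were called higher in these comparisons and 14.6% and 5.72% lower. Pbx3 rose by 3.50 (SE 0.46, adjusted p = 0.000537) and 3.24 (SE 0.46, adjusted p = 0.002) on the log2 scale by edgeR. Meis3 was called higher in both as well. None of the 8 was called between d3ko and d3con, and of 7 tested in d2-FVFp against d2-FVFn 1 was called, Meis3, which was higher (1.68, SE 0.35, edgeR adjusted p = 0.0207). Beside this, 4.75% and 6.96% of all genes were called higher in those comparisons, and 3.51% and 1.47% lower.

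Of 12 chromatin regulators of the clusters, 2 were called higher and 2 lower in d3con against d0con, 1 and 1 in d3ko against d0ko, 2 and 0 in d3ko against d3con and 0 and 0 in d2-FVFp against d2-FVFn. The shares of all genes were 20.6% and 14.6%, then 11.6% and 5.72%, in the comparisons of the days. They were 4.75% and 3.51% between the genotypes at day 3, and 6.96% and 1.47% under doxycycline. Eed, a core subunit of the Polycomb complex PRC2, fell from 267 and 300.4 TPM in d0con to 61.6, 70.8 and 69.5 TPM in d3con (log2 fold change -2.28, SE 0.30, adjusted p = 0.000515). In d3ko it was at 173, 85.5 and 205 TPM, higher than in d3con (1.20, SE 0.27, adjusted p = 0.0257). Cbx7, a PRC1 subunit, moved the same way in both comparisons. For Eed, Cbx7, Cdx1 and Gbx2 the d3ko library nearest to d3con was replicate 2, which had the lowest pluripotency sum of its group. For Aldh1a2 it was replicate 1. The part of the pluripotent state in these differences was not tested. Kdm6b, which removes the H3K27me3 mark, was higher at day 3 in the controls (1.99, SE 0.52, adjusted p = 0.0116) and in the knock-out cells (1.76, SE 0.52, adjusted p = 0.0313, all edgeR).

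Genes that flank the clusters or lie within them were listed too, 17 of them with rows in the tables and 11 tested at day 0 and day 3. In d3con against d0con 3 were called higher and 3 lower, in d3ko against d0ko 3 and 1, and in d3ko against d3con 1 and 0. The shares of all genes were 20.6% and 14.6%, 11.6% and 5.72%, and 4.75% and 3.51%, in that order. Evx1, which lies beyond Hoxa13 and is a gene of the primitive streak, went from 1.17 and 2.13 TPM in d0con to 10.4, 15.1 and 9.54 TPM in d3con (2.61, SE 0.67, adjusted p = 0.0107) and was also called higher in the knock-out cells. Of the genes that flank cluster b, Skap1 rose by 5.48 (SE 1.10, adjusted p = 0.00337) in the controls. Calcoco2, on the other side of that cluster, fell by 5.79 (SE 0.57, adjusted p = 0.000226, all edgeR). Hotair and Evx2 had no count in any library. None of the 10 tested in d2-FVFp against d2-FVFn was called (edgeR), where 6.96% of all genes were called higher and 1.47% lower.

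The genes outside the clusters whose level followed the summed Hox level most closely over the 10 day 0 and day 3 libraries were Foxn3 (Pearson r = 0.95), Nptxr (0.92), Grn (0.91), Atrn (0.90) and H2-Bl (0.90), on log2(TPM + 1). These libraries share day and genotype, so the coefficients are a description only. Foxn3, a forkhead repressor, ran from 14.1 to 28.9 TPM.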

How the data were processed

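RNA of 14 sorted samples in 6 groups was measured with the SMART-Seq v4 and MicroPlex kits, which do not mark strand. The authors aligned reads to mm10 (GRCm38) with STAR and quantified RefSeq genes with RSEM, versions not given in the sources used here. The deposited tables hold expected counts, TPM and FPKM per gene, and the FPKM deposited by the authors were not used.

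Expected counts were rounded to whole numbers. edgeR 4.0.16 (R 4.3.3, TMM, quasi-likelihood F test) was fitted to the 10 day 0 and day 3 libraries (13899 genes) and separately to the 4 doxycycline libraries (12943 genes), after keeping genes with at least 1 CPM in at least 2 libraries. The study compared groups in pairs, which was tried as an alternative. Genes were called at a Benjamini-Hochberg adjusted p below 0.05 over all genes and a log2 fold change beyond 1. The SE was the log2 fold change divided by the root of F. DESeq2 1.42.0, limma 3.58.1 on log2(TPM + 1) and log2(TPM + 0.1), other scaling, no filter, blocks and leaving out libraries were alternatives. The code was tested on simulated data. Library totals of 14142788 to 27278237 set the precision.

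All members that passed a filter were named with values, the rest by count and range, with list genes that passed the test (up to 4 each way per list) and Foxa2, and untested members named with values were picked after their values were seen. Some genes are not reported here and enter no sum, count or list, though all genes entered the fits. The members and lists were chosen with earlier results of these data known. Clone names pair replicates 1 and 2 across days within a genotype. Deviations from group means correlated by 0.03 and -0.01 in controls and by -0.03 and 0.06 in knock-out cells, and a clone block, added after seeing the data, kept the day 3 call. Promoters and coordinates came from RefSeq (GRCm38.p6), exons from GENCODE M21. The tables hold no comparisons by the authors.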

Additional observations from a re-analysis of the deposited data

How the results depend on the processing

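Most Hox genes had too few counts to test, and with 2 or 3 libraries per group each call rested on single libraries. The genes tested had passed the filter only through day 3 or d2-FVFp libraries. The numbers called between the days or between the 2 sorts therefore carry no weight. Settings added after seeing the data were those without both replicate 2 libraries of day 3, with same-clone libraries summed, with a clone block, and those leaving out a library from the summed level. In d3con against d0con the number of Hox genes called was 0, with 1 by DESeq2 (Hoxa9; Hoxb1 had no p), 2 without both replicate 2 libraries (Hoxa9 and Hoxd11), and 0 to 1 when libraries were left out in turn. In d3ko against d0ko it was 1 (Hoxb2), with 2 under no filter, 2 by DESeq2 on only these groups, 0 without the longer reads, and 0 to 1 when libraries were left out. It was 1 without both replicate 2 libraries too, but the gene was then Hoxa9. In d3ko against d3con it was 0, and 0 to 2 when libraries were left out, the 2 being Hoxb1 and Hoxb2 without d3con replicate 2. Both genes then passed the filter only through d3ko, so these 2 calls carry no weight either. In d2-FVFp against d2-FVFn it was 2, with 3 under no filter, 0 by DESeq2 and 0 when either d2-FVFn library was left out, a fit that assumes the lone library to vary like the other group. None of the Hox genes described passed the filter when a d2-FVFp library was left out, nor in a fit of d3con and d0con alone, so these gave no value. For d0ko against d0con and the interaction the count was 0 in every setting run. The causes were not tested.

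The replicate block (replicate numbers as a block) left 0, 1, 0 and 2 calls in the 4 comparisons in the order above, and changed no call. Replicate numbers share no clone between genotypes, and between d3con and d3ko the deviations from group means under a shared number correlated by 0.52, 0.29 and -0.02.

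The log2 fold changes that turned sign belonged to comparisons in which that gene was not called. In d3con against d0con these were Hoxa10 without d3con replicate 1 (range -0.82 to 1.55) and with a clone block (-0.03), and Hoxb1 without d3con replicate 2 (range -2.07 to 7.74). In d3ko against d3con Hoxa9 turned without d3con replicate 2 (range -0.06 to 0.89) and Hoxd11 without d3ko replicate 2 (range -0.83 to 0.09). In d0ko against d0con Hoxb1 turned when libraries were left out (-4.27 to 3.99). In the interaction Hoxa9 turned by limma (0.13 and 0.48 with pseudocounts of 1 and 0.1), and when libraries were left out Hoxb1 (-2.10 to 7.71), Hoxb2 (-1.71 to 2.20) and Hoxa10 (-0.17 to 2.34) did.

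The log2 ratio of group means of the summed Hox TPM was 0.87 in d3con against d0con (0.42 to 1.19 leaving out a library), 1.43 in d3ko against d0ko (1.16 to 1.57), 1.16 in d3ko against d3con (0.84 to 1.61), 0.60 in d0ko against d0con (0.36 to 0.88) and 1.27 in d2-FVFp against d2-FVFn (1.21 to 1.34). Summed CPM moved these by less than the spread between replicates. With a pseudocount of 0.1, 4 of the 5 genes most like the Hox sum remained.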
